A study of Sus scrofa with 6 samples.

Results

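Last stage follicles were compared with follicles labelled primordial in the ovary of prepubertal gilts (young female pigs before puberty), on an Affymetrix porcine expression array. The comparison takes 4 of the 6 arrays of the study, namely the 2 titled last stage follicle and the 2 titled primordial follicle, chosen by title alone. It is described over 5432 genes, those of 6765 genes with a single symbol in the platform annotation whose probe set was bright enough to be tested. The submitters isolated follicles by morphology and diameter at 3 stages, primordial, middle and last, to profile expression during follicle growth. The labels give no genotype or treatment for either group and no age beyond prepubertal. A description attached to all 6 samples calls them primordial, before the start of growth, which conflicts with 4 of the titles; stages are therefore named by title. The titles call the replicates biological, but no source used here says that they came from separate animals or how many follicles each RNA held, so p-values speak only of the spread among these samples, which may be technical.

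A follicle consists of an oocyte and the granulosa cells around it, and as it grows it gains a theca, a sheath of steroid-producing cells, contractile cells, fibroblasts and vessels that lies outside the granulosa. Theca cells turn cholesterol into androgens, which the granulosa converts to oestrogens. Macrophages and other leukocytes are found in the ovarian stroma and theca and collect in follicles that regress. A whole follicle on an array is therefore a mixture of cell types, and with such samples fewer cells of a type and less RNA per cell cannot be told apart.

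Values are the authors' signals, a brightness on a linear scale, and differences are last minus primordial on the log2(signal + 16) scale ± the standard error of a limma fit to all 6 arrays (n = 2 arrays per stage). The constant 16 makes the change of dim genes look smaller than it was. A difference was called at an adjusted p under 0.05, and "rose" and "fell" are used only for called differences, as seen from the arrays labelled primordial to the last arrays. Signals are given for replicate 1 and then replicate 2. A gene is called level where its difference was under 0.5 in size and the 95% confidence interval lay between -1 and 1. Signals of different genes are not set against each other, because probe sets differ in brightness for technical reasons.

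The median signal was 119.3 and 125.4 in the group labelled primordial, 140.3 and 150.6 in the last group and 169.9 and 165.0 in the middle group. Pearson's r of log2 signals over the tested probe sets was 0.973 within the group labelled primordial, 0.955 within the last group and 0.832 to 0.858 across these groups; probe sets are not independent, so these values only describe the arrays. The excess of 3′ over 5′ signal of the control transcripts, a sign of RNA quality, was 3.38 ± 0.25 (log2, SD, n = 2) for actin on the primordial-labelled arrays and 3.73 ± 0.23 on the last arrays. The same excess was 3.06 ± 0.53 and 1.88 ± 0.02 for GAPDH and 0.84 ± 0.24 and 0.76 ± 0.09 for EF1A. On the middle arrays it was 4.60 ± 0.54 for actin, 3.04 ± 0.35 for GAPDH and 1.10 ± 0.33 for EF1A. The last arrays differed from each other in leukocyte genes. Last replicate 2 was brighter than last replicate 1 for 21 of 22 myeloid genes (median gap 1.05), 9 of 10 lymphocyte genes (1.60), 8 of 8 MHC class II genes (1.99), 9 of 9 MHC class I genes (0.92) and 20 of 23 endothelial genes (0.40), against 48.2% of all 5432 genes (median gap -0.01). What underlies this gap was not tested, and counts without either last array are given beside these lists.

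The arrays labelled primordial were checked against genes that mark the oocyte and the growing granulosa. ZP3, a protein of the oocyte's zona pellucida coat, had signals of 67.4 and 75.5 in the group labelled primordial, 2427 and 2635 in the middle group and 121 and 119 in the last group. GDF9, through which the oocyte acts on granulosa cells, had 137 and 151 in the primordial group, 1396 and 1433 in the middle group and 202 and 162 in the last group. Most of the oocyte genes tested were bright enough only through their middle arrays, so the count that follows was partly fixed by that choice. Of the 10 oocyte genes tested, 9 were higher and 1 was lower on the middle arrays than on the mean of the ends (17.4% and 17.8% of all genes). KIT, a receptor of oocytes that mast cells and other ovarian cells make too, was the exception, with 892 and 1887 in the group labelled primordial, 170.0 and 255 in the middle group and 890.5 and 1006 in the last group; it was named after its values were seen. A probe set that the annotation assigns to CYP19A3, an aromatase gene, had 8971 and 10896 in the group labelled primordial. Its signals were 1433 and 1924 in the middle group and 14524 and 14555 in the last group. INHA, the inhibin alpha subunit, had 11118 and 16319, 2219 and 3823 and 14359 and 13618 in the same order. Pigs carry several aromatase genes which a probe set may not tell apart. The probe set assigned to CYP19A1, another aromatase gene, was too dim to be tested. Oocyte genes other than KIT were also summed over all 13 with a probe set, tested or not. The sums were 573.5 and 502.8, 20269 and 22091 and 965.1 and 977.8 in that order. CYP19A3 and INHA were therefore bright on the arrays labelled primordial, while the oocyte genes other than KIT were dim there beside the middle arrays. The granulosa list was mixed. Of its 16 tested genes, 6 were higher and 6 lower on the middle arrays than on the mean of the ends. AMH, for example, had 199 and 273 in the group labelled primordial and 969.5 and 1764 in the middle group. The values of INHA and the oocyte genes go against the name primordial, but the mixed granulosa list does not settle it. Which aromatase gene the CYP19A3 probe set measured was not tested. The name is used below only as the submitters' label, and every direction rests on it.

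The comparison asked what separates follicles at the end of growth from those labelled as its start. Genes of the stroma and theca led the increases, and genes of macrophages and cytokines led the decreases. Of 5432 genes, 1789 (32.9%) were called, 932 higher (17.2%) and 857 lower (15.8%) on the last arrays, and 2450 (45.1%) were level. The counts of every list below are to be read against these shares. Over all probe sets tested, 4786 of 14399 (33.2%) were called, 2857 higher (19.8%) and 1929 lower (13.4%); of the 7438 probe sets among them without a single gene symbol, which cannot be named, 2574 (34.6%) were called. Called genes with a difference of at least 2-fold numbered 496 higher and 503 lower. At 8-fold or more there were 40 higher and 47 lower, and at 32-fold or more 5 and 5. The arrays of the stages did not overlap for 3754 genes (69.1%), among them all 1789 called genes. A lack of overlap stated below for a called gene therefore describes its arrays and adds nothing to its call.

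The balance of directions depended on the scaling. Of the called genes, 52.1% were higher as deposited, 47.7% after quantile normalization and 30.8% after centring arrays on their medians, and of the called probe sets 59.7%, 52.3% and 39.0%. Centring moved the median difference of all genes from 0.06 to -0.16, so small differences are to be read against that shift. The number of called genes was 1032 without primordial replicate 1 and 1028 without primordial replicate 2.

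**Figure D1:**
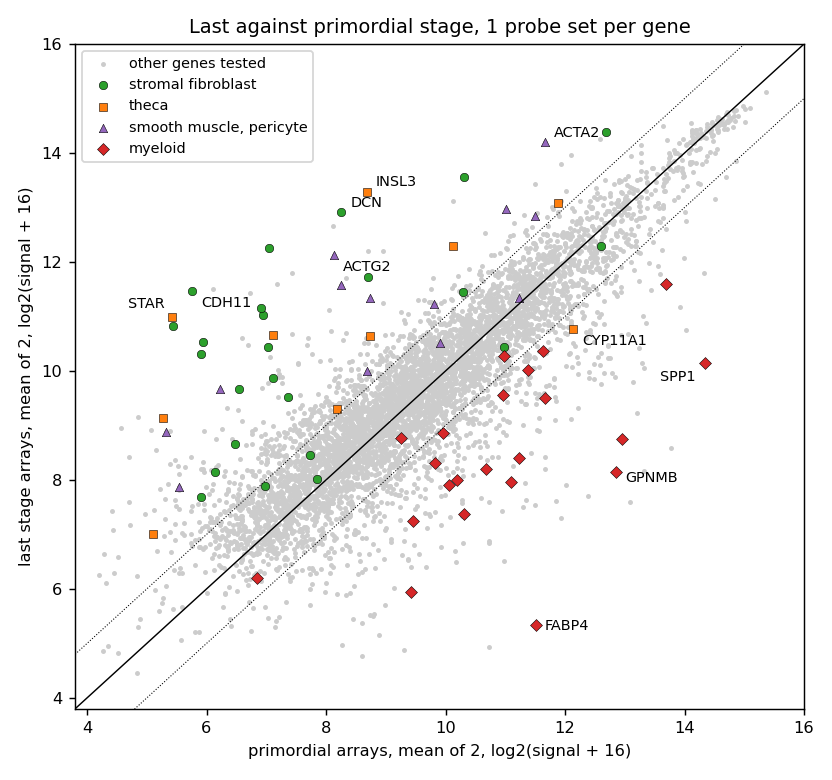
Mean log2(signal + 16) of each of 5432 genes on the primordial-labelled arrays (horizontal axis) and on the last arrays (vertical axis), n = 2 arrays per stage, on linear axes of log2 values, with the solid line at no difference and the dotted lines at 2-fold. Stromal, theca and smooth muscle genes, in colour, lie mostly above the upper dotted line and myeloid genes below the lower one, such as FABP4 at -6.17 ± 0.37.

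Stromal and fibroblast genes rose together. Of 27 such genes with a probe set, 24 were tested, and 21 rose while 0 fell, with a median difference of 2.89 against 0.06 over all genes. Their summed signal was 17486 and 22647 in the group labelled primordial, 80160 and 56056 in the middle group and 78000 and 74765 in the last group. The rise was therefore not particular to the last arrays. Single genes varied, with 15364 and 9867 for DCN and 410 and 330.5 for LUM on the middle arrays. CDH11, cadherin 11 of mesenchymal cells, had the largest increase of any gene, with signals of 51.8 and 27.5 on the primordial-labelled arrays and 2778 and 2872 on the last arrays (difference 5.71 ± 0.29, 52.3-fold, adjusted p = 9.64e-06). LUM and DCN, small leucine-rich proteoglycans that bind collagen fibrils, rose from 28.6 and 26.3 to 3079 and 1044 and from 260.0 and 322 to 8430 and 6982. Their differences were 5.38 ± 0.42 (adjusted p = 6.16e-05) and 4.65 ± 0.23 (adjusted p = 9.24e-06). All last arrays lay far above all arrays labelled primordial, although the last arrays for LUM differed from each other by more than for most of these genes.

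COL6A3 and COL5A1, chains of collagens VI and V, rose from 89.7 and 148 to 4859 and 4835 and from 119 and 95.9 to 1958 and 2191 (differences 5.21 ± 0.29 and 4.08 ± 0.25, adjusted p = 1.42e-05 and 2.16e-05). FAP, a membrane protease of activated fibroblasts, rose from 49.6 and 38.4 to 1313 and 1206 (difference 4.41 ± 0.29). PTN, the secreted growth factor pleiotrophin, rose from 51.8 and 39.6 to 1275 and 1695 (difference 4.60 ± 0.32). These matrix genes were dim before and bright after, with no overlap. COL3A1, a fibrillar collagen chain, did not pass, with 352 and 128 on the primordial-labelled arrays and 102 and 550.5 on the last arrays, which overlap (difference 0.17 ± 0.68, adjusted p = 0.871). Its sign turned when arrays were centred on their medians, without primordial replicate 2 or without last replicate 2. Of the list, 18 to 20 genes rose when any 1 of the 4 arrays was left out.

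Genes of the theca list rose as well. Of 10 tested members, 9 rose and 0 fell, with a median difference of 2.03. Some members are on the list of steroid synthesis too, and which cells made these transcripts was not tested. STAR, which delivers cholesterol to the inner mitochondrial membrane, had 31.1 and 22.9 and 2487 and 1626 (difference 5.57 ± 0.30, 47.4-fold). INSL3, an insulin-like peptide hormone of theca cells, had 548 and 283 and 10006 and 9958 (difference 4.61 ± 0.29, adjusted p = 2.31e-05). CYP17A1, the enzyme that makes androgens from progestagens, had 40.2 and 10.3 and 553 and 536 (difference 3.86 ± 0.40). All 3 were higher on every last array than on any array labelled primordial. STAR and CYP17A1 were bright enough to be tested only through the last arrays, so no p is given for them, although their calls held with no filter. HSD3B1, which makes progesterone, rose from 72.1 and 201 to 1769 and 1466 (difference 3.56 ± 0.41). LHCGR, the luteinizing hormone receptor, rose from 1025 and 1193 to 3367 and 7409 (difference 2.16 ± 0.37, adjusted p = 0.00264), with the last arrays wide apart. The exception was CYP11A1, the side-chain cleavage enzyme that starts steroid synthesis, with 4673 and 4311 on the primordial-labelled arrays and 1610 and 1872 on the last arrays. Its arrays did not overlap, but the difference of -1.36 ± 0.50 did not pass (adjusted p = 0.0639); it passed with arrays centred, with a constant of 64, from the 4 arrays alone and without middle replicate 1 or 2.

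Smooth muscle and pericyte genes also rose, 11 of 13 tested with 0 lower and a median difference of 2.34. ACTA2, smooth muscle alpha actin, rose from 3659 and 2823 to 18297 and 19323 (difference 2.54 ± 0.16, adjusted p = 2.43e-05). ACTG2, smooth muscle gamma actin, rose from 196 and 354 to 5025 and 3972, with 63.6 and 101 on the middle arrays (difference 4.0 ± 0.31, adjusted p = 5.95e-05). TAGLN and CNN1, actin-binding proteins of contractile cells, rose by 3.33 ± 0.21 and 3.44 ± 0.26 (adjusted p = 2.25e-05 and 5.03e-05). Each of these genes was brighter on every last array. MCAM, an adhesion molecule of pericytes and endothelium, rose from 34.1 and 16.1 to 451 and 459 (difference 3.55 ± 0.33). It was bright enough to be tested only through the last arrays, although its call held with no filter. RGS5, a regulator of G protein signalling in pericytes named after its values were seen, was level, with 2242 and 2539 and 2434 and 2706 (difference 0.10 ± 0.20). Without 1 of the 4 arrays, 10 or 11 members of the list rose.

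Endothelial genes rose less uniformly, with 13 of 23 tested higher, 2 lower and 4 level and a median difference of 1.01. CDH5, VE-cadherin of endothelial junctions, rose from 98.8 and 188 to 812 and 1079 (difference 2.64 ± 0.31, adjusted p = 0.0004). VWF, von Willebrand factor, rose from 154 and 197 to 427 and 614 (difference 1.47 ± 0.31, adjusted p = 0.00678). CAV1, caveolin 1, which is also made by other mesenchymal cells, rose from 219 and 728 to 4642 and 4768 (difference 3.50 ± 0.44). ESAM, ANGPT2 and CD34 rose by 1.99 ± 0.32, 1.53 ± 0.28 and 1.68 ± 0.28. By contrast PECAM1, an adhesion molecule of endothelium and also of leukocytes, was level, with 969 and 894 and 722 and 894 (difference -0.21 ± 0.23). The 2 members that fell were ICAM2 (-1.48 ± 0.32) and VCAM1 (-1.77 ± 0.34), adhesion molecules that other cells make too; both were named after their values were seen. With primordial replicate 1 left out 8 members rose. The call for ICAM2 was lost without primordial replicate 2. Without last replicate 2, the brighter of the last arrays for this list, 9 rose.

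**Figure D2:**
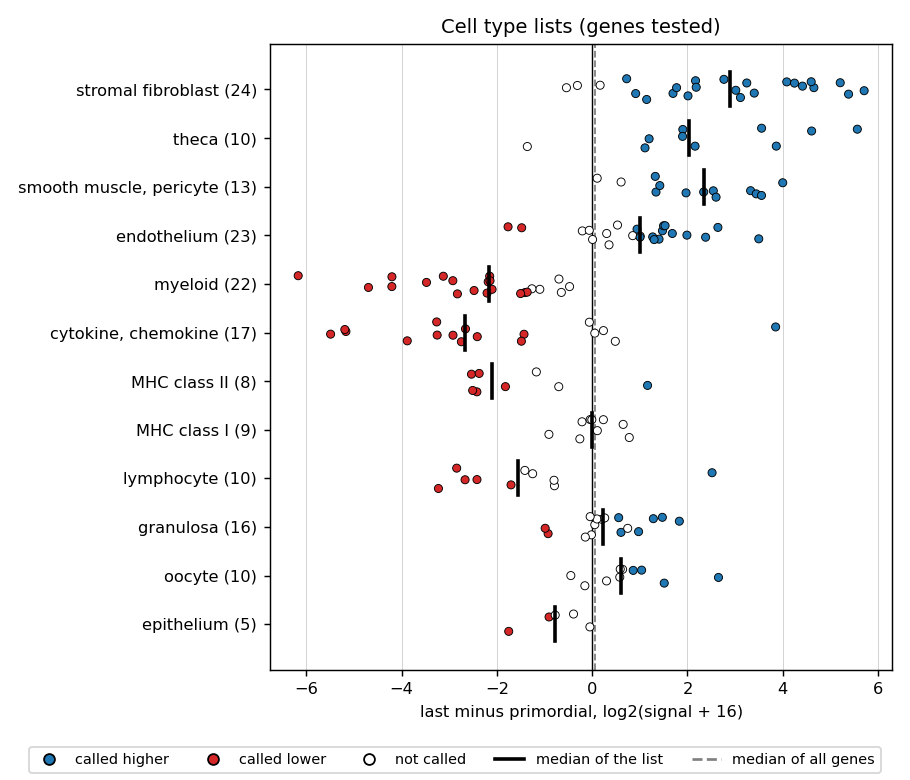
Last minus primordial difference (log2(signal + 16), horizontal axis) of every tested gene of the cell type lists, 1 row per list, with genes called higher in blue, called lower in red and not called in white, the list median as a black bar and the median of all genes as a dashed line. Stromal, theca and smooth muscle genes lie mostly to the right of 0, with medians of 2.89, 2.03 and 2.34, and myeloid, cytokine and MHC class II genes mostly to the left, with medians of -2.17, -2.66 and -2.10.

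Macrophage and other myeloid genes fell. Of 22 tested, 17 fell and 0 rose, and all 22 had a difference below 0, with a median of -2.17. Their summed signal was 84112 and 74998 in the group labelled primordial, 8663 and 19796 in the last group and 8174 and 6500 in the middle group. FABP4, a fatty acid binding protein of macrophages and adipocytes, had the largest decrease of any gene, with 2496 and 3366 on the primordial-labelled arrays and 14.0 and 38.4 on the last arrays (difference -6.17 ± 0.37, 72.1-fold lower). It was bright enough to be tested only through the arrays labelled primordial, so no p is given, although its call held with no filter. SPP1, osteopontin, fell from 20412 and 21174 to 989 and 1249 (difference -4.21 ± 0.20, adjusted p = 9.24e-06). GPNMB, a glycoprotein of lipid-laden macrophages, fell from 8191 and 6622 to 336 and 214 (difference -4.70 ± 0.30). For each of these genes both arrays labelled primordial stood far above all other arrays. CD53, a tetraspanin of leukocytes, fell from 7746 and 8074 to 253 and 672 (difference -4.20 ± 0.40) and TYROBP, a signalling adaptor of myeloid and natural killer cells, from 2258 and 2080 to 179 and 306 (difference -3.13 ± 0.31). Without any 1 of the 4 arrays, 15 to 19 members fell.

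The 15 largest decreases held further genes outside the myeloid list. ACP5, tartrate-resistant acid phosphatase, fell from 3965 and 3849 to 137 and 147 (difference -4.63 ± 0.22). ARG1, arginase 1, fell from 3990 and 4230 to 231 and 217 (difference -4.10 ± 0.21), LGALS3, galectin 3, from 10290 and 8674 to 397 and 856 (-3.98 ± 0.32), and CHI3L1, a chitinase-like secreted protein, from 702 and 545 to 6.8 and 22.3 (-4.42 ± 0.49). SMPDL3A, a secreted phosphodiesterase, differed by -4.47 ± 0.40, CXCL14, a chemokine, by -4.23 ± 0.26, and IL18BP, which binds and blocks interleukin 18, by -4.69 ± 0.26. Apart from CHI3L1, their adjusted p lay between 9.24e-06 for ACP5 and 0.000109 for SMPDL3A. CHI3L1 was too dim for a stricter filter and may have been tested only through the arrays labelled primordial. No p is given for it, although its call held with no filter. A probe set that the annotation assigns to AMELX, which encodes the enamel protein amelogenin, fell from 2105 and 1335 to 35.2 and 2.2 (difference -5.79 ± 0.51); the symbol is that of the annotation, which can be old.

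Cytokine and chemokine genes fell with them, 12 of 17 tested, while 1 rose. IL1B, interleukin 1 beta, fell from 14188 and 13875 to 343 and 395 (difference -5.19 ± 0.23, adjusted p = 9.24e-06), and IL1A from 1703 and 1665 to 112 and 87.6 (difference -3.88 ± 0.26). IL1A was bright enough to be tested only through the arrays labelled primordial, although its call held with no filter. CXCL8, a chemokine that attracts neutrophils, fell from 10765 and 9781 to 242 and 300.2 (difference -5.17 ± 0.24, adjusted p = 9.24e-06), and the middle arrays were lower still, at 9.2 and 17.4. CCL3L1 and CCL4, chemokines for monocytes and T cells, differed by -5.49 ± 0.33 and -3.27 ± 0.26. The arrays of the stages were apart for every one of these genes. CXCL12, a chemokine of stromal cells and the member that rose, went from 9.0 and 29.2 to 327 and 669 (difference 3.85 ± 0.44, adjusted p = 0.000369); it was named after its values were seen.

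MHC class II genes, which present antigen on macrophages, dendritic cells and B cells, fell in 5 of 8 tested cases and rose in 1. SLA-DRB1, SLA-DQA1 and SLA-DQB1, chains of the pig's class II molecules, differed by -2.53 ± 0.57, -2.37 ± 0.52 and -2.51 ± 0.57 (adjusted p = 0.00953, 0.00792 and 0.00975). For SLA-DRB1 the signals were 4658 and 6225 on the primordial-labelled arrays and 406 and 2044 on the last arrays, so the stages did not overlap, yet last replicate 2 lay between last replicate 1 and the arrays labelled primordial. CD74, the invariant chain, fell from 2690 and 2219 to 346 and 1321 (difference -1.82 ± 0.49). SLA-DMA, which loads peptides onto class II molecules, rose from 2920 and 4348 to 7226 and 8841 (difference 1.16 ± 0.20), but with the mean of its probe sets the difference was -0.10. Of the class II genes 3 or 1 fell without primordial replicate 1 or 2, and without last replicate 1 or 2, 5 or 6 did. The calls for SLA-DRB1, SLA-DQB1 and CD74 were lost without primordial replicate 2, and that for CD74 also without primordial replicate 1. SLA genes have near-identical copies that the probe sets may not tell apart.

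MHC class I genes, which nearly all cells carry, showed 0 calls in 9 tested, with 1 at an unadjusted p under 0.05 in limma, and 4 were level. SLA-2 and SLA-3, class I heavy chains, had 9037 and 9013 and 4395 and 7230 on the arrays labelled primordial. On the last arrays they had 4580 and 12393 and 1385 and 6454, a wide spread, with last replicate 2 the brighter in each. TAP1 and TAPBP, of the peptide-loading complex, differed by 0.65 ± 0.53 and 0.78 ± 0.31 (adjusted p = 0.376 and 0.0834). TAPBP was called higher when the replicate number was added to the fit as a block. SLA-8 was level at 0.23 ± 0.22. Without last replicate 1, 2 of the 9 genes were called higher, and without last replicate 2, 2 were called lower.

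Lymphocyte genes were dimmer, and 5 of 10 tested fell while 1 rose. Most of those that fell passed the filter only through the arrays labelled primordial, so this count was partly fixed by that choice. CD3E, a chain of the T cell receptor complex, fell from 413 and 565 to 32.1 and 165 (difference -2.42 ± 0.54). IL2RG, the shared chain of several interleukin receptors, fell from 649.7 and 750.1 to 60.4 and 149 (difference -2.67 ± 0.38, adjusted p = 0.0011). LCK, a kinase of T cells, had 285 and 491 and 2.0 and 80.4 (difference -3.23 ± 0.68). The last arrays were lower in each, with last replicate 1 the lowest. GNLY and KLRK1, genes of cytotoxic and natural killer cells, differed by -2.85 ± 0.77 and -1.70 ± 0.44. CD3E, LCK, GNLY and KLRK1 were bright enough to be tested only through the arrays labelled primordial. No p is given for them, although their calls held with no filter. JCHAIN, the joining chain of antibodies made by plasma cells, was the member that rose, from 140.2 and 134 to 283 and 2545 (difference 2.52 ± 0.75, adjusted p = 0.0293); it was named after its values were seen. The count of lymphocyte genes that fell was 3 or 2 without primordial replicate 1 or 2, and the call for JCHAIN was lost under 7 of the 16 alternatives, both of these among them. Without primordial replicate 2 the calls for CD3E, LCK and GNLY were lost, without primordial replicate 1 those for GNLY and KLRK1, and without last replicate 1 that for KLRK1. Of granulocyte and mast cell genes only MS4A2, a mast cell receptor chain, was bright enough to be tested, and it differed by -1.37 ± 0.42 (adjusted p = 0.0332), a call lost without primordial replicate 1 or 2, without last replicate 1 or with no filter. Of red cell genes, HBB, beta globin, rose from 726 and 668 to 1311 and 1028 (difference 0.72 ± 0.20, adjusted p = 0.0223), a call lost without primordial replicate 1 or 2, without last replicate 1 or with arrays centred, and ALAS2, of heme synthesis in red cells, did not pass (0.52 ± 0.37).

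Granulosa genes moved in both directions by smaller amounts. Of 16 tested, 6 rose, 2 fell and 6 were level, against 17.2%, 15.8% and 45.1% of all genes, with a median of 0.23. INHA had 11118 and 16319 on the primordial-labelled arrays and 14359 and 13618 on the last arrays and was level (difference 0.05 ± 0.26). NR5A2, a nuclear receptor needed for ovulation, rose from 3458 and 4891 to 11608 and 8676 (difference 1.28 ± 0.24, adjusted p = 0.00418), with 185 and 137 on the middle arrays. NR5A1, steroidogenic factor 1, rose from 456 and 327 to 1025 and 1180 (difference 1.47 ± 0.29). The stages did not overlap for either receptor. NR0B1, a repressor of steroidogenic genes, rose from 8.3 and 3.8 to 60.8 and 63.1 (difference 1.83 ± 0.39), but passed the filter only through its middle arrays, at 227 and 254. GATA4, a transcription factor of somatic ovarian cells, rose by 0.97 ± 0.24, a call lost without primordial replicate 1 or 2 or last replicate 1. FSHR, the follicle-stimulating hormone receptor, fell from 276 and 291 to 137 and 146 (difference -0.93 ± 0.23, adjusted p = 0.0144). AMH, anti-Müllerian hormone of small growing follicles, named after its values were seen, fell from 199 and 273 to 107 and 113 (difference -0.99 ± 0.31, adjusted p = 0.0346). The call for AMH was lost under 6 of the 16 alternatives, leaving out either last array among them. Neither FSHR nor AMH was called without primordial replicate 1 or 2, when 3 members rose, and 3 rose without last replicate 1.

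Oocyte genes other than KIT, described above, were dim at both ends beside the middle arrays. Of 10 tested, 4 rose, 0 fell and 2 were level, with a summed signal of 1465 and 2390 in the group labelled primordial, 1856 and 1984 in the last group and 20439 and 22346 in the middle group. Without KIT, which overlapped between the ends and did not pass (difference -0.45 ± 0.34), the sums were 573.5 and 502.8, 965.1 and 977.8 and 20269 and 22091. Members that passed the filter did so mainly through the middle arrays. DPPA5, a gene of germ cells and early embryos, rose from 4.9 and 6.3 to 96.7 and 147, against 4196 and 3598 on the middle arrays (difference 2.65 ± 0.27, adjusted p = 0.000231). ZP4, of the zona pellucida, rose from 56.6 and 50.5 to 104 and 117 (difference 0.86 ± 0.23), and KPNA7 and WEE2, an importin and a meiotic kinase of the oocyte, rose by 1.51 ± 0.40 and 1.04 ± 0.28. These increases were small beside the middle arrays. Only 2 oocyte genes were called without primordial replicate 1 or 2 or without last replicate 1, and the calls for ZP4, KPNA7 and WEE2 were lost under 7, 6 and 6 of the 16 alternatives. Of 5 epithelial genes 2 fell, against 15.8% of all genes. EPCAM, an epithelial adhesion molecule, fell from 146 and 111 to 22.3 and 31.1 (difference -1.75 ± 0.34, adjusted p = 0.00446). CDH1, E-cadherin, fell from 185 and 144 to 63.8 and 98.6 (-0.91 ± 0.29, adjusted p = 0.0386). The call for CDH1 was lost under 8 of the 15 alternatives it was tested in. EPCAM passed the filter through its middle and primordial-labelled arrays. KRT8, a keratin, was level (-0.05 ± 0.27).

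**Figure D3:**
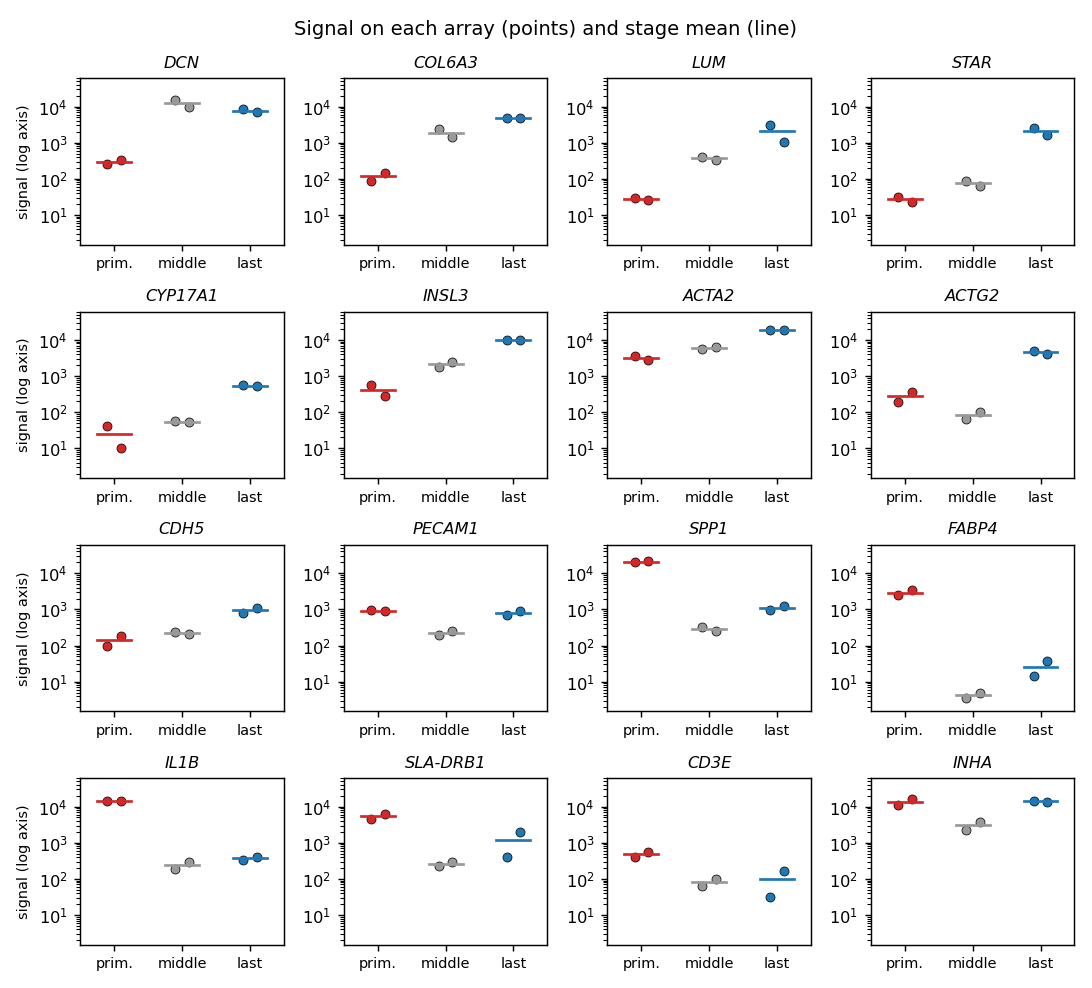
Signal of 16 genes on each of the 6 arrays (log axis), 1 panel per gene, with a point per array and a line at the mean of each stage (n = 2). The stromal, theca and smooth muscle genes lie higher on the last arrays than on the arrays labelled primordial, the myeloid, cytokine and class II genes lie lower, and INHA and PECAM1 are alike at both ends.

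Several of the 15 largest increases lay outside these lists. SFRP1, a secreted inhibitor of Wnt signalling, rose from 46.2 and 61.1 to 2594 and 3230 (difference 5.39 ± 0.27, adjusted p = 9.24e-06). FGF13, an intracellular member of the fibroblast growth factor family, rose from 150.0 and 111 to 2991 and 3130 (difference 4.41 ± 0.29). EGFLAM, the matrix protein pikachurin, rose from 5.8 and 22.6 to 628 and 495 (4.31 ± 0.37). All 3 were dim on both arrays labelled primordial. A2M, the protease inhibitor alpha-2-macroglobulin, C1S, a complement protease, and ADAMDEC1, a secreted metalloproteinase-like protein, differed by 4.55 ± 0.39, 4.36 ± 0.49 and 4.70 ± 0.44. Their last arrays were spread, with 4170 and 10032, 1847 and 6763 and 1770 and 4214, while their arrays labelled primordial had 193 and 352, 129.5 and 190.0 and 57.1 and 136. FXYD7, a regulator of the sodium pump, rose by 4.38 ± 0.36. The highest adjusted p among these 7 genes was 0.000349, for C1S.

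The steps from cholesterol to steroid were compared next. Of 14 tested genes of steroid synthesis and inactivation, 7 rose and 1 fell, with a median of 0.66, and 5 of the 14 are on the theca list too. FDX1, ferredoxin 1, which passes electrons to mitochondrial steroid enzymes, rose from 3136 and 4518 to 9442 and 7899 (difference 1.19 ± 0.20, adjusted p = 0.00234). CYB5A, cytochrome b5, which aids androgen synthesis, rose from 3229 and 3839 to 8443 and 7917 (difference 1.21 ± 0.16, adjusted p = 0.000701). CYP19A3 rose by 0.56 ± 0.18 (adjusted p = 0.0406), a call lost under 7 of the 16 alternatives; pigs carry several aromatase genes which a probe set may not tell apart. HSD17B1, which makes oestradiol, was level at 8907 and 12569 and 12390 and 10375 (difference 0.10 ± 0.21). TSPO, a protein of the outer mitochondrial membrane, was the member that fell (-1.32 ± 0.35, adjusted p = 0.0199), a call lost without primordial replicate 1 or 2 or last replicate 1. CYP19A3, HSD17B1 and TSPO were named after their values were seen.

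The synthesis of cholesterol itself ran the other way. Of 15 tested genes 8 fell and 0 rose, with a median of -0.84. SQLE, squalene epoxidase, fell from 1787 and 2412 to 628 and 434 (difference -1.96 ± 0.31, adjusted p = 0.00171). NSDHL and HSD17B7, later enzymes of the pathway, fell from 1204 and 1871 to 326 and 497 and from 1256 and 1541 to 436 and 335 (differences -1.86 ± 0.30 and -1.82 ± 0.21). INSIG1, which holds back the sterol-sensing activation of the pathway and is itself a target of it, fell from 6535 and 5914 to 2190 and 2019 (difference -1.56 ± 0.21, adjusted p = 0.000783). The last arrays lay below the arrays labelled primordial in all 4. The members that were level included HMGCS1 at -0.36 ± 0.19 and FDFT1 at -0.45 ± 0.17, both named after their values were seen. Without primordial replicate 2, 4 of the genes fell.

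Of 13 tested genes of lipoprotein uptake and cholesterol transport, 6 fell and 1 rose. NPC1 and NPC2, which move cholesterol out of lysosomes, fell from 3822 and 5114 to 979.7 and 1141 and from 6364 and 4717 to 1419 and 2064 (differences -2.05 ± 0.22 and -1.67 ± 0.23, adjusted p = 0.000274 and 0.000967). LIPA, lysosomal acid lipase, differed by -1.59 ± 0.23, APOE, a lipoprotein component that macrophages secrete, by -1.64 ± 0.30, and ABCA1, a cholesterol exporter, by -0.98 ± 0.23. APOE had 6644 and 5011 on the primordial-labelled arrays and 1325 and 2554 on the last arrays, where replicate 2 was the brighter. The call for ABCA1 was lost without primordial replicate 1 or 2.

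Genes of fatty acid synthesis, uptake and storage fell in 12 of 23 tested cases and rose in 0, with a median of -0.73. PLIN2, a coat protein of lipid droplets, fell from 7522 and 7041 to 906 and 969 (difference -2.94 ± 0.17, 7.65-fold lower, adjusted p = 1.74e-05). FABP5, a fatty acid binding protein, fell from 10438 and 8809 to 1036 and 1778 (difference -2.81 ± 0.26, adjusted p = 0.000132). LPL, lipoprotein lipase, fell from 381 and 351 to 82.2 and 67.9 (difference -2.07 ± 0.25). For all 3 the groups were well apart. SCD, stearoyl-CoA desaturase, and PNPLA2, a triglyceride lipase, differed by -1.95 ± 0.31 and -1.17 ± 0.22. ELOVL6, a fatty acid elongase, was level between the ends (-0.29 ± 0.30), though not under 9 of the 16 alternatives. The summed myeloid signal, given above, fell over the same arrays, and macrophages make PLIN2, FABP5, LPL and APOE too. On the middle arrays that sum was 8174 and 6500. There LPL had 555 and 758, above the arrays labelled primordial, while PLIN2 had 839 and 882, FABP5 445 and 374 and APOE 413 and 480. The part of macrophages in the lipid results was not tested.

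Genes of fatty acid oxidation were called in both directions, with 5 of 21 tested higher, 5 lower and 8 level, against 17.2%, 15.8% and 45.1% of all genes. SLC25A20, the carnitine carrier, rose from 573 and 441 to 1002 and 985 (difference 0.96 ± 0.21, adjusted p = 0.00788), and ACADL and HSD17B4, enzymes of mitochondrial and peroxisomal oxidation, rose by 0.85 ± 0.19 and 0.82 ± 0.17. HADH and ACADM, which act on shorter chains, differed by -0.83 ± 0.18 and -0.73 ± 0.18, with signals of 4166 and 3347 and 4258 and 4295 on the primordial-labelled arrays and 2247 and 1960 and 2912 and 2276 on the last arrays. These counts rest on all arrays. Without primordial replicate 1, 2 rose and 1 fell, and the same numbers were found without primordial replicate 2; without last replicate 1 or 2, 4 rose and 2 fell. The calls for ACADL, HADH and ACADM were lost without primordial replicate 1, those for SLC25A20 and ACADM without primordial replicate 2, and that for ACADM without last replicate 2.

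**Figure D4:**
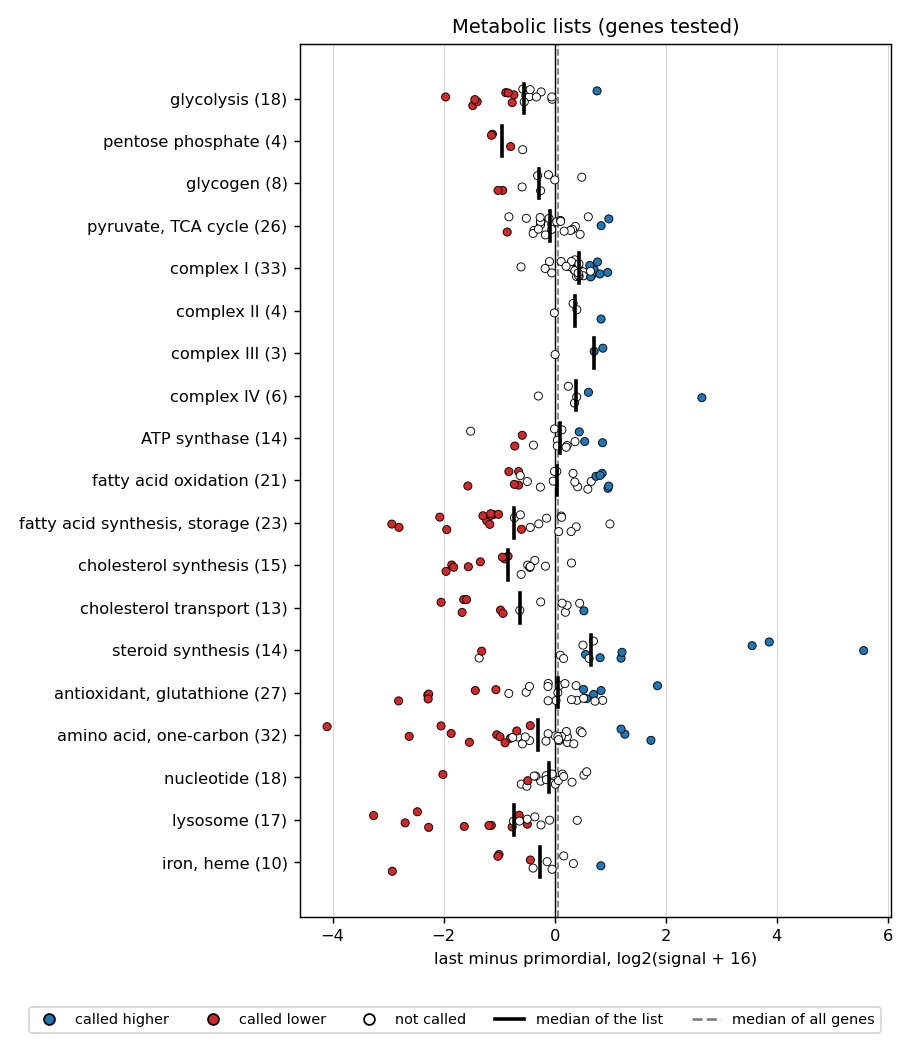
Last minus primordial difference (log2(signal + 16), horizontal axis) of every tested gene of the metabolic lists, 1 row per list, in the same colours, with the list median as a black bar. Cholesterol synthesis, lipid storage and lysosomal genes lie mostly left of 0, with medians of -0.84, -0.73 and -0.74, and the subunits of complexes I and III mostly right of it, with medians of 0.43 and 0.71.

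Transcripts of glucose metabolism were called lower more often than higher. Of 18 tested genes of glucose uptake and glycolysis, 8 fell, 1 rose and 5 were level, with a median of -0.56. SLC2A1, a glucose transporter, fell from 1709 and 1492 to 462 and 340.2 (difference -1.97 ± 0.23, 3.91-fold lower, adjusted p = 0.000381). SLC2A3, another glucose transporter, fell from 5953 and 6294 to 3488 and 3696 (difference -0.77 ± 0.16). LDHA, the lactate dehydrogenase chain that favours lactate formation, fell from 11134 and 14101 to 6199 and 3636 (difference -1.40 ± 0.24, adjusted p = 0.00274). All 3 were lower on every last array. ENO1 and ENO2, enolases, differed by -0.84 ± 0.26 and -1.48 ± 0.33, whereas LDHB, the other lactate dehydrogenase chain, was level at 14303 and 13399 and 12840 and 13838 (-0.05 ± 0.12). PFKM, a phosphofructokinase, was the member that rose (0.76 ± 0.26, adjusted p = 0.0485), and that call was lost under 13 of the 16 alternatives; LDHB and PFKM were named after their values were seen. Without primordial replicate 2, 3 members fell, and without last replicate 2, 5 fell. The call for SLC2A3 was lost without primordial replicate 2, that for ENO1 without primordial replicate 2 or last replicate 2, with no filter or without the intensity trend, and that for ENO2 without primordial replicate 1.

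The pentose phosphate pathway, which makes NADPH and ribose, had 3 of 4 tested genes lower. RPIA, ribose phosphate isomerase, fell from 5166 and 6895 to 2448 and 2978 (difference -1.14 ± 0.21, adjusted p = 0.00372), and PGD, the pathway's NADPH-forming phosphogluconate dehydrogenase, from 1158 and 1400 to 591 and 560.2 (difference -1.12 ± 0.29, adjusted p = 0.0173). TKT, transketolase, differed by -0.79 ± 0.27 (adjusted p = 0.0478), a call lost under 10 of the 16 alternatives. Without primordial replicate 2 or last replicate 2, 1 of the genes was called. Of 8 glycogen genes 2 fell and 5 were level, against 15.8% and 45.1% of all genes. PYGL, glycogen phosphorylase, fell by -0.94 ± 0.18 (adjusted p = 0.00407) and PHKG2, a kinase that activates it, by -1.02 ± 0.31 (adjusted p = 0.0303). The call for PHKG2 was lost without primordial replicate 1 or 2, without last replicate 1 and with no filter.

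Pyruvate entry and the tricarboxylic acid cycle, the shared oxidative route of sugars and fats, were mostly level. Of 26 tested genes 19 (against 45.1% of all genes) were level, 2 rose and 1 fell. SUCLG2, a subunit of succinyl-CoA ligase, rose from 1667 and 1283 to 2832 and 2946 (difference 0.97 ± 0.18, adjusted p = 0.00411), and ME1, malic enzyme, by 0.84 ± 0.24 (adjusted p = 0.0276), a call lost without primordial replicate 1 or 2, without last replicate 1, under either rescaling and with the mean of its probe sets. PC, pyruvate carboxylase, differed by -0.86 ± 0.29 (adjusted p = 0.0489), a call lost under 11 of the 16 alternatives. PDK4, a kinase that shuts off pyruvate oxidation, had 1273 and 1101 on the primordial-labelled arrays and 700.3 and 1846 on the last arrays and met the level rule only narrowly (difference -0.06 ± 0.40, interval -0.97 to 0.86). It did not meet the rule under 12 of the 16 alternatives.

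Complex I, the entry point of the respiratory chain, was described over 33 tested subunits. Of these 8 rose, 0 fell and 18 were level, against 17.2%, 15.8% and 45.1% of all genes, with a median of 0.43 against 0.06. NDUFC1 rose from 3390 and 3274 to 6793 and 6156 (difference 0.95 ± 0.15, 1.94-fold, adjusted p = 0.00166), NDUFB3 from 2694 and 2599 to 5012 and 4337 (0.81 ± 0.16) and NDUFB1 from 5267 and 5616 to 9314 and 8526 (0.71 ± 0.14). All changes of this list were under 2-fold. Last replicate 1 was the brighter last array for all but 1 of the 33 subunits, and 4 rose without it, 4 without either array labelled primordial and 11 without last replicate 2. With arrays centred on their medians 4 rose.

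Of complex III, UQCRB and UQCR10 rose from 4909 and 4778 to 9173 and 8530 and from 3591 and 3546 to 5747 and 5950 (differences 0.87 ± 0.14 and 0.71 ± 0.14), while CYCS, cytochrome c, had 2592 and 2608 and 3580 and 1905 (0.01 ± 0.32). Both calls held under every alternative. Of 6 complex IV subunits 2 rose, against 17.2% of all genes. COX7A1, a form typical of heart and skeletal muscle, rose from 238 and 276 to 1692 and 1699 (difference 2.65 ± 0.24, 6.28-fold, adjusted p = 0.000107). COX7A2, the widespread form, rose from 5725 and 6549 to 10612 and 8215 (0.61 ± 0.17). The call for COX7A2 was lost without primordial replicate 1 or 2, without last replicate 1, with arrays centred and without the intensity trend. Of 4 complex II subunits SDHC rose (0.83 ± 0.22, adjusted p = 0.0177), a call lost without primordial replicate 2 or last replicate 2 or with arrays centred, and 3 were level. Of 14 ATP synthase subunits 3 rose, 2 fell and 9 were level, shares of calls near those of all genes (17.2% and 15.8%), and 0 rose without primordial replicate 1 or 2 or last replicate 1; 0 fell without primordial replicate 2 or last replicate 2. ATP5B, the catalytic beta subunit, fell from 7904 and 9774 to 5667 and 6043 (-0.59 ± 0.17), a call lost under 6 of the 16 alternatives.

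Amino acid, polyamine and one-carbon genes fell in 11 of 32 tested cases and rose in 3, against 15.8% and 17.2% of all genes. Besides ARG1, SLC7A1, a carrier of arginine and lysine, fell from 2572 and 3395 to 562 and 386 (difference -2.62 ± 0.25, adjusted p = 0.000148) and ARG2, the mitochondrial arginase, from 837 and 660.1 to 206 and 179 (-1.87 ± 0.24). ASNS, asparagine synthetase, fell from 4084 and 2471 to 743 and 769 (-2.05 ± 0.24). ASS1, argininosuccinate synthase, rose from 87.2 and 140.0 to 339 and 485 (difference 1.73 ± 0.32, adjusted p = 0.00358). Only 5 or 6 of these genes fell without primordial replicate 1 or 2. Nucleotide genes were mostly level, 13 of 18, against 45.1% of all genes. PNP, purine nucleoside phosphorylase, fell from 2485 and 3460 to 777 and 655 (-2.01 ± 0.22, adjusted p = 0.000305). The other gene of that list that fell, NME2, was also level by size (-0.49 ± 0.16), and its call was lost without any 1 of the 4 arrays.

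Antioxidant and glutathione genes were called about as often as genes in general. Of 27 tested, 5 rose, 6 fell and 11 were level, against 17.2%, 15.8% and 45.1% of all genes. SOD2, mitochondrial superoxide dismutase, fell from 8975 and 5475 to 781 and 1238 (difference -2.81 ± 0.28, adjusted p = 0.000195). TXNRD1, thioredoxin reductase, HMOX1, heme oxygenase, and GPX1, glutathione peroxidase, differed by -2.27 ± 0.20, -2.28 ± 0.23 and -2.29 ± 0.29. MGST1, a microsomal glutathione transferase, went the other way, from 4473 and 3413 to 12513 and 15971 (difference 1.85 ± 0.22, adjusted p = 0.000467). The arrays of the stages did not overlap for any of these 5, as held for all called genes. Without primordial replicate 1 or last replicate 1, 3 genes rose, and with arrays centred 3 rose and 10 fell. The summed myeloid signal fell over the same arrays, and its part in the decreases was not tested.

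Lysosomal genes fell in 10 of 17 tested cases and rose in 0, with a median of -0.74. CTSZ and CTSH, cathepsins, fell from 12363 and 8498 to 919 and 1207 and from 7051 and 5854 to 782 and 1224 (differences -3.26 ± 0.26 and -2.69 ± 0.25, adjusted p = 6.16e-05 and 0.000132). LGMN, legumain, fell from 13001 and 8418 to 1760 and 1987 (-2.47 ± 0.23), CTSD by -2.27 ± 0.21 and GLA, alpha-galactosidase, by -1.63 ± 0.18. Each was higher on both arrays labelled primordial than on any other array. Iron genes are to be read against the 15.8% of all genes called lower. Among them SLC11A1, a metal transporter of macrophage phagosomes, fell from 867 and 632 to 49.0 and 136 (-2.93 ± 0.40). It was bright enough to be tested only through the arrays labelled primordial, so no p is given, although its call held with no filter. FTL, ferritin light chain, fell from 28900 and 30342 to 12662 and 17206 (-1.0 ± 0.15) by its brightest probe set, while another of its probe sets was called higher. Of 10 iron genes 4 fell, or 2 without primordial replicate 1, primordial replicate 2 or last replicate 1. The myeloid list fell over the same arrays, and its part in these results was not tested.

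Genes that were level between the ends were the largest class. Of the 3643 genes that were not called, 2432 (66.8%) met the level rule and 1211 met neither, and 18 genes were both called and level. The rule favours precise genes: in 4 groups of equal size, from the dimmest to the brightest genes by mean signal, 30.1%, 45.7%, 48.4% and 56.3% were level. Among genes used as references in quantitative PCR, 11 of 15 tested were level. ACTB, beta actin, had 28887 and 30656 on the primordial-labelled arrays and 25849 and 31124 on the last arrays (difference -0.07 ± 0.12, interval -0.34 to 0.20). GAPDH had 24880 and 32839 and 22924 and 22528 (-0.33 ± 0.15) and HPRT1 2105 and 2201 and 1939 and 1423 (-0.37 ± 0.20). The arrays for ACTB overlapped, whereas those for GAPDH and HPRT1 did not. GUSB, beta-glucuronidase of the lysosome, fell (-1.19 ± 0.23, adjusted p = 0.0044), and ALAS1, of heme synthesis, rose (0.83 ± 0.24, adjusted p = 0.026). The call for GUSB was lost with the mean of its probe sets, and that for ALAS1 with that mean, with arrays centred and without primordial replicate 1 or 2 or last replicate 1. With arrays centred, 10 of the 15 were called lower and 7 met the level rule.

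Ribosomal proteins were the most uniform list. Of 62 tested 60 were level, and 0 were called, with 4 at an unadjusted p under 0.05 in limma; the differences ran from -0.50 to 0.50 with a median of 0.02. RPS18 and RPL31, the brightest level genes, differed by -0.25 ± 0.13 and -0.11 ± 0.11. RPL13A had 25727 and 27121 and 25584 and 27921 (0.02 ± 0.11). With arrays centred 16 were called lower, and after quantile normalization 6 were called higher, so that the list tracks the scaling. B2M, the light chain of class I molecules, was level by its brightest probe set (-0.01 ± 0.12), but of its 9 tested probe sets 3 were called higher and 1 lower.

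**Figure D5:**
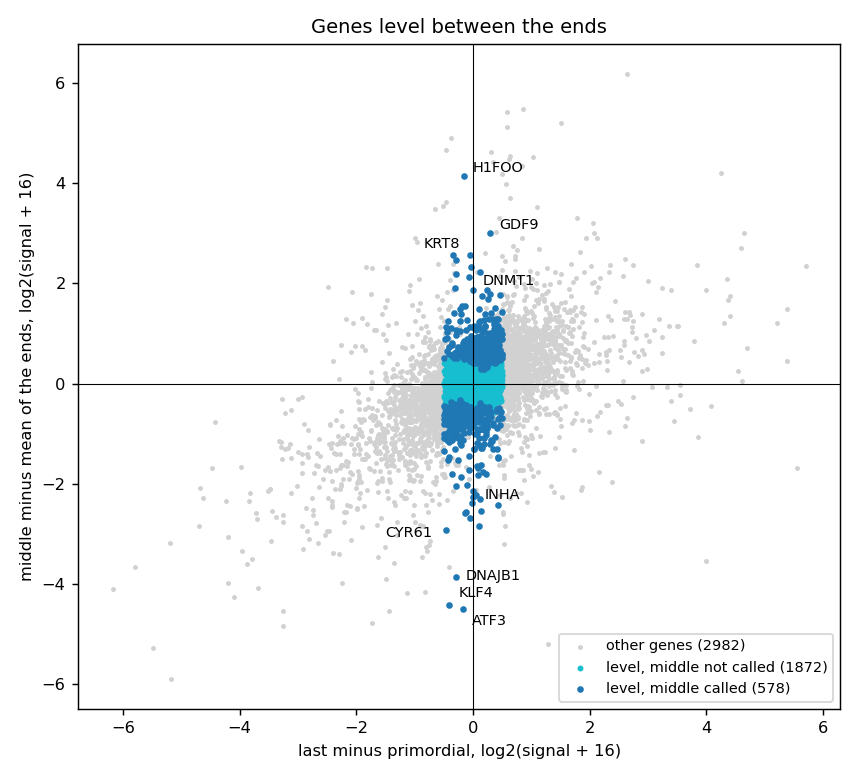
Middle minus mean of the ends (vertical axis) against last minus primordial (horizontal axis), both on the log2(signal + 16) scale, for 5432 genes, with level genes in blue, darker where the middle difference was called. Of 2450 level genes 283 were called higher and 295 lower on the middle arrays, from H1FOO at 4.14 ± 0.25 to ATF3 at -4.49 ± 0.19.

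Being level between the ends did not mean being level throughout. The middle arrays were set against the mean of the 4 end arrays, a contrast that does not use the difference between the ends. Of 2450 level genes 578 (23.6%) were called, 283 higher and 295 lower on the middle arrays, against 1910 of 5432 genes (35.2%, with 17.4% higher and 17.8% lower) and 1332 of 2982 genes that were not level (44.7%). Without middle replicate 1, 161 level genes were called, without primordial replicate 1 or 2, 296 or 266. With arrays centred on their medians 135 were higher and 542 lower. The middle arrays also had the largest mean excess of 3′ over 5′ signal for actin and EF1A, given above. The part of RNA quality in the middle contrast was not tested.

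Of 20 tested immediate-early and stress genes, 19 were lower on the middle arrays than on the mean of the ends, against 17.8% of all genes. ATF3, a transcription factor of the stress response, had 6492 and 4428 in the group labelled primordial, 209.8 and 210.4 in the middle group and 4431 and 5130 in the last group (middle minus ends -4.49 ± 0.19, adjusted p = 1.45e-06). KLF4, a transcription factor induced by stress and growth signals, had 10316 and 8345, 369 and 359 and 5631 and 8713 (-4.41 ± 0.20). DNAJB1, a heat shock co-chaperone, had 22883 and 13287, 1138 and 1022 and 13406 and 15198 (-3.85 ± 0.20). In each, both middle arrays lay far below all 4 end arrays. Outside that list, CYR61, a matricellular protein, GEM, a small GTPase, and IRF1, an interferon regulatory factor, differed by -2.92 ± 0.17, -2.84 ± 0.23 and -2.69 ± 0.26. Of the listed genes 11 were level between the ends, 7 fell and 1 rose. MYC, a transcription factor of growth, fell from 4508 and 4278 to 570.2 and 505, as low as the 621 and 566 of the middle arrays (last minus primordial -3.0 ± 0.19, adjusted p = 2.29e-05). IER3, an early response gene, fell from 2265 and 2500 to 778 and 1044, near the 732 and 855 of the middle arrays (-1.39 ± 0.21). BTG2, an antiproliferative gene, rose from 1958 and 2346 to 6019 and 5313 (1.39 ± 0.22). Without primordial replicate 1 or last replicate 1, 2 of the list fell.

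Of the level genes higher in the middle, 6 of 283 had end arrays that averaged under the filter and were tested only through their middle arrays, so their difference gets no p. H1FOO, the oocyte's linker histone, had 128 and 67.5 in the group labelled primordial, 1747 and 1892 in the middle group and 89.3 and 76.1 in the last group (middle minus ends 4.14 ± 0.25) and was 1 of these 6. GDF9 differed by 3.01 ± 0.19 and DNMT1, the maintenance DNA methyltransferase, which oocytes store, had 1732 and 1723, 9040 and 8255 and 2043 and 1409 (2.32 ± 0.17). KRT8 and ELOVL6, described above, differed by 2.56 ± 0.23 and 2.46 ± 0.26. CTNNAL1, an alpha-catenin-like protein, MYO5B, a myosin of vesicle transport, and SLC31A2, a copper transporter, differed by 2.22 ± 0.18, 2.19 ± 0.22 and 2.56 ± 0.22. On these genes the middle arrays stood above all 4 end arrays. H1FOO, SLC31A2 and MYO5B did not meet the level rule under 5 of 16, 8 of 16 and 4 of 15 alternatives.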

How the data were processed

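Follicle RNA was hybridised to 6 single-colour Affymetrix porcine arrays, 2 per stage. Per the labels' protocols, RNA was isolated with Trizol and labelled as biotinylated cRNA. Per the submitters' processing notes, the authors obtained the values with GCOS; its version and parameters are not named there. The values deposited by the authors are a linear intensity per probe set. The trimmed mean (2% left out at each end) was 500.1 on every array, which fits a single scaling factor per array set by the authors. The number of arrays limits the precision.

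Of 24123 probe sets, 124 controls were left out. The platform annotation gives 1 symbol for 10069 of the other 23999, several for 198 and none for 13732. By gene identifier, 9961 of the single-symbol probe sets were found in RefSeq's gene table, and 0 symbols changed. The dimmest 40% of probe sets (mean signal of all 6 arrays under 91.3) were left out. A gene dim elsewhere could pass this filter through 1 stage alone, which then also decided that it was tested. For the other 14399, log2(signal + 16) was modelled on all 6 arrays with limma (version 3.58.1, R 4.3.3; lmFit, eBayes with an intensity trend), with 3 residual and 6.33 prior degrees of freedom. Tests were two-sided with Benjamini-Hochberg adjustment over all probe sets tested. A gene is represented by its tested probe set of highest mean signal. On simulated data the model was tested first. Python 3.11.15 was used for tables and figures.

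The comparison, the gene lists and the rule for naming genes were chosen with earlier results of these data known. The rule took the 15 largest called differences in each direction, up to 5 members of each list with the smallest p, the 15 brightest level genes, the 8 level genes in each direction with the largest middle difference, and genes named in any case; the text uses part of these and says where a gene was named outside the rule. MYH11, COL1A1, PDGFRA and CSF1R were not analysed here, and KDR and CD14 fell below the filter. Lists are described by counts and medians, with no test of a list. Alternatives covered the constant, the filter, the scaling, the fit, a replicate block, the choice of probe set and leaving out each array.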

Additional observations from a re-analysis of the deposited data

How the results depend on the processing

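Of 145 called genes named in the text, 103 kept their call under every alternative they were tested in, and 13 of 31 level genes met the level rule likewise; there were 16 alternatives, or 15 for the 17 called genes and 1 level gene that were too dim for the stricter filter. Arrays decided most of what moved. Leaving out 1 array at a time left 2730 to 4297 probe sets called (1641 to 2521 higher, 1089 to 1783 lower), 1028 to 1653 genes called (536 to 836 higher, 492 to 818 lower) and 161 to 518 level genes called in the middle contrast (83 to 274 higher, 78 to 258 lower). The lowest counts came without primordial replicate 1 or 2 and, for the middle contrast, without middle replicate 1, and fewer arrays were then fitted. With each array centred on its median, 1759 probe sets and 543 genes were called higher on the last arrays, and of the level genes 135 were higher and 542 lower in the middle; this scaling shifts all differences down. Without the intensity trend 194 level genes were lower in the middle; the cause was not tested. The level genes numbered 1772 to 2943 over all alternatives.

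The difference of COL3A1 turned to -0.059 with centring; leaving out 1 array it ran from -0.97 without last replicate 2 to 1.30 without last replicate 1, with -0.51 without primordial replicate 2. SLA-2 ran from -0.98 without last replicate 2 to 0.46 without last replicate 1, SLA-3 from -2.01 to 0.19 and TAP1 from -0.38 to 1.68 in the same order. With the mean of a gene's probe sets FTL turned to 0.16 and SLA-DMA to -0.10, whose probe sets differ. KIT ran from -0.98 to 0.085, its sign turning without primordial replicate 2. The cause was not tested otherwise. Same-numbered arrays shared only a number (correlation of their deviations 0.03 between primordial and last, 0.06 between primordial and middle and -0.05 between middle and last); with the number as a replicate block 4532 probe sets and 1691 genes were called. Dim genes were the less precise: in 4 groups of equal size by mean signal, 26.3% of the dimmest genes were called and 36.6% of the brightest.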

Other observations

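Of 1185 genes with several tested probe sets, 8 had probe sets called in both directions: B2M, EF1ALPHA, FTL, HSP90AA1, LAMP2, MARCH6, SEPT7 and TMEM248. For 124 genes the brightest probe set was level while another was called.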
